A study of Mus musculus with 4 samples.

Results

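Lcn2, Apoc1, Akr1cl, Sult1e1, Rarres1, Ass1 and Snhg11 are 7 of the 18419 genes in the deposited table of mouse testis cells. They were selected on measured values, as leading genes of the Leydig cells of the busulfan library that lie outside steroid synthesis. Their levels in that library, and every contrast with it, are therefore descriptions. Lcn2 encodes lipocalin 2, a secreted protein that binds iron-carrying siderophores, and Apoc1 encodes a small apolipoprotein of lipoprotein particles. Akr1cl belongs to the aldo-keto reductases, which reduce carbonyl groups of steroids and other substrates, and Sult1e1 encodes the estrogen sulfotransferase, which inactivates estrogens by adding sulfate. Rarres1 is a retinoid-responsive gene related to the carboxypeptidase inhibitor latexin. Ass1 encodes argininosuccinate synthase, which joins citrulline and aspartate on the way back to arginine, and Snhg11 is a host gene of small nucleolar RNAs.

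Leydig cells lie between the seminiferous tubules and make testosterone from cholesterol in response to luteinizing hormone. They are few among the cells of a normal testis suspension, where spermatocytes and spermatids dominate. Busulfan is an alkylating drug that kills dividing germ cells, and alginate oligosaccharides (AOS) are short sugar chains cut from the alginate of brown algae. The study asked whether AOS restore sperm formation after busulfan.

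Male ICR mice, an outbred stock, received 1 of 4 treatments that began when they were juvenile. The study describes collection weeks later, in adulthood, and gives differing lengths of AOS dosing. Per its methods, seminiferous tubules were cut up and digested, and it states that only tubular cells were taken. How many cells from between the tubules came along in each library is not known, so cell shares are not those of whole testes. The cells were captured with droplet single-cell RNA sequencing that counts transcript 3′ ends by unique molecular identifiers (UMIs). A0 mice received vehicle without busulfan, and A10 mice received AOS at 10 mg/kg body weight without busulfan. B0 mice received a single busulfan injection and then vehicle, and BA10 mice received the same injection and then AOS at 10 mg/kg. Cells of several mice were pooled into 1 library per group, so animals cannot be told apart, no test between groups is possible, and all intervals given here cover counting error only.

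The libraries held 3778 to 9682 cells and 25323535 to 150812974 UMIs in all. B0 stood apart from the others in depth, with a median of 4214 UMIs per cell against 10948 to 17989 in the other libraries. Its cells reached down to 2985 UMIs, while the lowest cell of BA10 had 9013, so values are also given for cells with at least 9013 UMIs, of which B0 had 448. Pairs of libraries shared 31 to 135 cell barcodes, at most 1.51% of a library. The summed level of 8 Leydig markers was 7.93, 10.3, 14643 and 403 UMIs per 1000000 UMIs of the library (CPM) in the order A0, A10, B0 and BA10, in which values are listed from here on. The summed level of 10 macrophage markers also moved, at 19.6, 16.7, 629 and 65.6 CPM, as did that of 10 Sertoli markers, at 59.7, 62.4, 2959.5 and 309 CPM. The summed level of 10 spermatid markers moved the other way, at 41371, 47740 and then 385 and 1434 CPM. Of the other lists, 6 peritubular myoid markers summed to 6.62, 5.40, 104 and 15.8 CPM, 10 spermatogonia markers to 119, 128, 385 and 189, 11 spermatocyte markers to 813, 863, 783 and 1310.3, and 8 endothelial markers to 20.6, 18.1, 42.3 and 4.02. CPM divides by all UMIs of a library, whichever cells they come from. The part of these differences in the values below was not tested, except where a level per Leydig transcript or within a cell class is given.

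On the mm10 build, with GENCODE M21 gene models, Lcn2 spans chr2:32384633-32388252 on the minus strand and Ass1 spans chr2:31470207-31520672 on the plus strand. Apoc1 lies at chr7:19689481-19692660, minus strand, 3449 bases from its neighbour Apoe in the apolipoprotein cluster. Akr1cl (chr1:65012689-65032759), Sult1e1 (chr5:87575969-87591594) and Rarres1 (chr3:67478972-67515523) are on the minus strand. Sult1e1 lies 6942 bases from the related sulfotransferase gene Sult1d1. Snhg11 (chr2:158375638-158386145, plus strand) overlaps 2 predicted genes on its own strand that are not in the table, and GENCODE M21 lists it as protein coding.

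As a description of the genes' sequence, the 250 bases before each start site were searched on both strands for 4 motifs. AAGGTCA and CAAGGNCA are loose patterns that include sites of the nuclear receptor SF-1 (Nr5a1) and its relatives. The others were the AP-1 site TGANTCA and TATAAA. RefSeq promoter sequences (GRCm38.p6) were matched for 6 of the 7 genes, with Apoc1 not matched. Their start sites are not all those of the GENCODE spans above. The Lcn2 window (chr2:32387740-32387989) lies inside the Lcn2 span, and the windows of Ass1 (chr2:31470020-31470269) and Snhg11 (chr2:158375463-158375712) reach into theirs. Of the 4 motifs, only the first pair occurred, in Akr1cl and in Sult1e1, and these 2 windows are printed from 5′ to 3′ with the match in capitals.
Akr1cl, chr1:65032760-65033009, minus strand: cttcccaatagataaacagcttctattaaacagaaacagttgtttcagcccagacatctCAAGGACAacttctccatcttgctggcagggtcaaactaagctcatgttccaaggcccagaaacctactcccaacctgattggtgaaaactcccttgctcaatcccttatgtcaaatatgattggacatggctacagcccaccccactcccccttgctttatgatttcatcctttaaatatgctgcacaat
Sult1e1, chr5:87591612-87591861, minus strand: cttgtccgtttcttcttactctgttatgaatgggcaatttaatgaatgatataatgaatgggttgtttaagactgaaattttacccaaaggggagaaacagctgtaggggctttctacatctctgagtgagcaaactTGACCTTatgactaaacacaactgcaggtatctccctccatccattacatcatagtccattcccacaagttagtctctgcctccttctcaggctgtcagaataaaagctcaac

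The Akr1cl match to CAAGGNCA lies 191 to 184 bases before the start, and the Sult1e1 match, which is AAGGTCA on the other strand, 113 to 107 bases before it. Of 32851 promoters, 4.08% held AAGGTCA, 5.53% CAAGGNCA, 6.75% TGANTCA and 12.4% TATAAA. A site with T in place of N would match both of the first pair, and the Akr1cl match has A there. A match is a description of the letters in these windows only.

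All 7 genes were low in A0 and A10, highest in B0 and intermediate in BA10. Lcn2 stood at 4.25, 5.41, 8989.6 and 278 CPM. Apoc1 stood at 1.44, 1.43, 4186 and 130.1 CPM. For both genes the 95% counting intervals of B0 and BA10 lay apart from each other and from those of A0 and A10.

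Akr1cl was found at 1.49, 2.38, 2857 and 99.8 CPM. Sult1e1 was found at 0.444, 0.772, 1237 and 31.8 CPM. Both genes were highest in B0 and next highest in BA10, like Lcn2 and Apoc1. The A10 interval of each (2.13 to 2.65 for Akr1cl, 0.635 to 0.930 for Sult1e1) lay above that of A0 (1.30 to 1.69 and 0.344 to 0.564). Of the Sult1e1 UMIs, 43 of 67 in A0 and 91 of 111 in A10 lay in 5 and 8 Leydig-like cells, as defined below. For Akr1cl these were 98 of 224 and 223 of 342. The intervals do not cover which cells were captured.

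Rarres1 measured 0.736, 0.918, 756 and 17.4 CPM. Ass1 measured 1.17, 1.59, 1194 and 48.7 CPM. Snhg11 measured 0.570, 0.404, 170.2 and 2.41 CPM, so that BA10 lay nearer to A0 for this gene than for any other of the 7. Between A0 and A10 the intervals of Apoc1, Rarres1 and Snhg11 overlapped, and those of Lcn2 (3.93 to 4.59 and 5.03 to 5.80) and Ass1 (1.00 to 1.35 and 1.39 to 1.81) did not. Outside the Leydig-like cells, Lcn2 had 356 UMIs in A0 and 276 in A10, and Ass1 had 104 and 83.

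In these sums, more Leydig cells and more of a transcript per Leydig cell cannot be told apart.

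**Figure D1:**
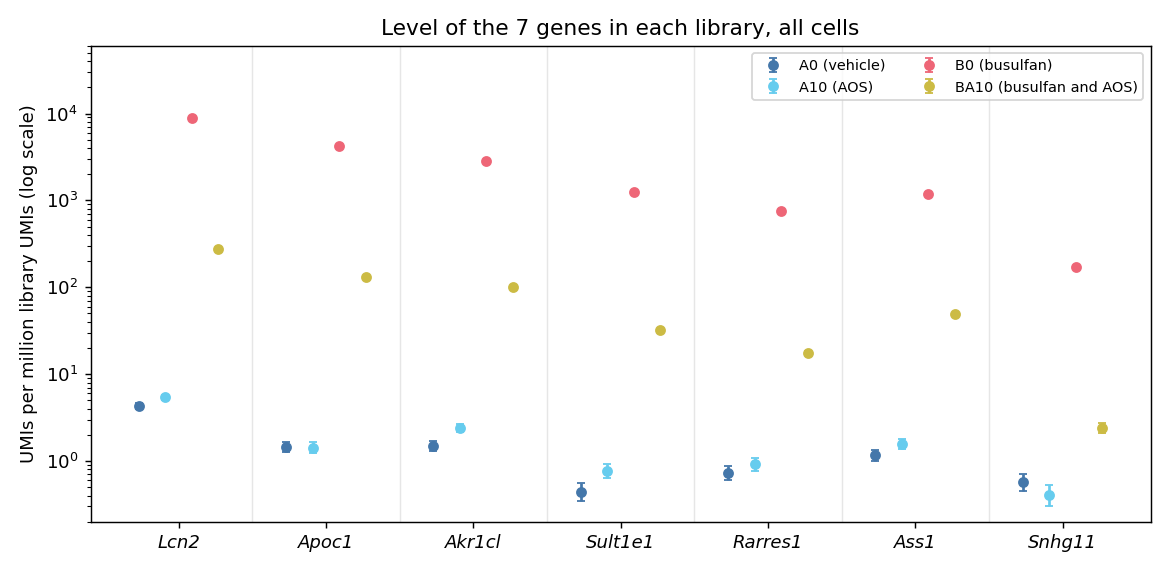
Level of each of the 7 genes, in CPM on a log scale, with 1 point per library and exact 95% Poisson intervals. B0 is the highest library for every gene, from 170.2 CPM for Snhg11 to 8989.6 CPM for Lcn2, and BA10 lies between B0 and the A0 and A10 libraries.

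As log2 ratios with 1 CPM added, B0 exceeded A0 by 10.74 for Lcn2 (counting interval 10.64 to 10.84), 10.75 for Apoc1, 10.17 for Akr1cl, 9.74 for Sult1e1, 8.77 for Rarres1, 9.11 for Ass1 and 6.77 for Snhg11. These were descriptions of the values that chose the genes. Of the 11154 genes tested, which had a UMI in 5% or more of the cells in A0 or in B0, Apoc1, Lcn2 and Akr1cl ranked 2, 3 and 4 from the highest, behind the Leydig peptide hormone gene Insl3 at 11.74. Sult1e1 ranked 8, Ass1 17, Rarres1 22 and Snhg11 109. A difference of at least 4-fold was taken as called, and 7 of 7 genes were called higher, beside 26.8% of all genes tested. Each of them passed the filter through B0 alone, the library that chose them, so nothing about the genes is read from this count. Among cells with at least 9013 UMIs the log2 ratios of B0 over A0 were smaller, at 7.17 for Lcn2 (counting interval 7.02 to 7.31), 7.27 for Apoc1, 6.51 for Akr1cl, 5.83 for Sult1e1, 4.72 for Rarres1, 5.20 for Ass1 and 2.82 for Snhg11. There 7 of 7 genes were called higher, beside 8.06% of 10773 genes, and nothing is read from this count either, because B0 chose the genes.

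From B0 to BA10 the log2 ratio was -5.01 for Lcn2, -5.00 for Apoc1, -4.83 for Akr1cl, -5.24 for Sult1e1, -5.36 for Rarres1, -4.59 for Ass1 and -5.65 for Snhg11. Again 7 of 7 genes were called, here lower, beside 23.2% of 11147 genes, and nothing about the genes can be read from this count because B0 chose them. That call did not hold among deeper cells. Among cells with at least 9013 UMIs, the level of Lcn2 was 601 CPM in B0 and 278 in BA10, that of Apoc1 362 and 130.1, and that of Snhg11 10.1 and 2.41. There, 0 of 7 genes were called lower, with log2 ratios from -1.70 for Snhg11 to -0.61 for Ass1, beside 0.807% of 10652 genes called lower. At that limit 20 of 448 B0 cells (4.46%) and 128 of 3778 BA10 cells (3.39%) were Leydig-like, as defined below. Without it the class held 2929 cells in B0 (62.9%), so the limit left out most of them and none of the 128 in BA10. The B0 levels with and without the limit thus come from different sets of cells.

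BA10 was not the library named in choosing the genes, though the choice was made with earlier results of these data known. Against A0 its log2 ratio was 5.73 for Lcn2, 5.75 for Apoc1, 5.34 for Akr1cl, 4.51 for Sult1e1, 3.41 for Rarres1, 4.52 for Ass1 and 1.12 for Snhg11. The first 6 passed the filter, each of them through BA10 alone, and 6 of 6 were called higher, beside 2.18% of 10534 genes; Snhg11 did not pass it. Genes that pass only where they are high must differ, so nothing is read from this count. At the limit of 9013 UMIs 6 of the 6 genes that passed were called, beside 2.31% of 10578 genes. A10 against A0 gave log2 ratios from -0.16 for Snhg11 to 0.44 for Akr1cl, and 0 of the 7 genes passed the filter, beside 0% of 9024 genes called higher.

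Cells were clustered without the 7 genes, and clusters 0 and 26 of 28 were named Leydig-like from markers such as Insl3, Cyp17a1 and Cyp11a1. The class held 5, 8, 2929 and 128 cells, which made up 62.9% of B0 and 3.39% of BA10. The study placed Leydig and Sertoli cells in a joint group, with a smaller share of BA10 and larger shares of the other libraries. The source of this difference was not tested. All 8 Leydig markers had UMIs in the class in every library, which follows in part from naming the class by them. In A10, Lhcgr (22.0 CPM) and Nr5a1 (11.0 CPM) lay below a floor of 3 counts in these cells (33.0 CPM). Cluster 26 had 0 Leydig markers among its 10 leading genes. Insl3 stood at 11864 CPM in the Leydig-like cells of B0 and at 1443 CPM in the remaining B0 cells, where 363 cells described further on held it at 10504 CPM and the spermatocyte-like cells at 161 CPM.

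In A0, few cells held much of each gene but Snhg11. There, 5 Leydig-like cells of 8941 (0.0559%) held 44.5% of all Lcn2 UMIs of the library, 64.2% of Sult1e1, 43.8% of Akr1cl, 42.3% of Rarres1, 40.9% of Ass1 and 21.2% of Apoc1. Snhg11 differed, with 8.14% of its A0 UMIs in these cells. In B0 the Leydig-like cells held between 87.3% (Snhg11) and 90.5% (Sult1e1) of each gene's UMIs. The 363 B0 cells described further on were counted outside the class, and held 19833 of the 24233 Lcn2 UMIs outside it.

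Each of the 5 Leydig-like A0 cells contained Lcn2, with 30 to 149 UMIs and a median of 34. Akr1cl was present at 12 to 29 UMIs in each of the 5, Ass1 at 4 to 20, Rarres1 at 1 to 16, Apoc1 at 1 to 13 and Snhg11 at 1 to 3. Sult1e1 had 0 to 32 UMIs and was seen in 4 of the 5. In A10, 8 of 8 such cells contained Lcn2, Akr1cl, Rarres1 and Ass1, 7 of 8 contained Apoc1 and Sult1e1, and 4 of 8 contained Snhg11. Leydig-like cells of both libraries without busulfan thus held transcripts of all 7 genes.

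Within the Leydig-like class, Lcn2 measured 5435, 5510.0, 16114 and 7723 CPM. Apoc1 measured 877, 1144, 7423 and 3068 CPM, and Sult1e1 measured 820.1, 1001, 2245 and 826 CPM. Akr1cl measured 1869, 2453, 5068 and 2468 CPM. For Rarres1 the values were 896, 803, 1352 and 471, for Ass1 1373, 1595, 2149 and 1294, and for Snhg11 134, 55.0, 298 and 52.9 CPM. With 5 and 8 cells in A0 and A10 these values stand side by side only, and different clusters made up the class: 2899 of its 2929 cells in B0 were in cluster 0, and all 5 in A0, 7 of 8 in A10 and 79 of 128 in BA10 were in cluster 26. Cells of cluster 26 held more UMIs (medians of 7892.5 in B0 and 17631 in BA10) and a smaller share of Leydig transcripts than those of cluster 0, and genes such as Serpina3a, Gstm1 and Aqp2 led it.

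The same holds for either cluster alone, since in cluster 26 the libraries A0, A10 and B0, and in cluster 0 all libraries but B0, had fewer than the 50 cells set as the minimum for a comparison. In cluster 26, Lcn2 measured 5435 CPM (counting interval 4823 to 6104), 4024, 5679 (5397 to 5973) and 4873 CPM, and Akr1cl 1869, 1904, 1909 and 1588 CPM. The intervals leave out differences between cells, and in A0 1 of the 5 cells held 149 of the 285 Lcn2 UMIs.

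Apoc1 measured 877, 766, 2637 and 1935 CPM in cluster 26, the larger values being those of the busulfan libraries. Ass1 measured 1373, 1257, 679 and 716 CPM and Rarres1 896, 587, 476 and 241 CPM, the smaller values being those of the busulfan libraries. Sult1e1 measured 820.1, 850.3, 536 and 523 CPM and Snhg11 134, 47.9, 113 and 26.9 CPM. The Snhg11 values of A0 and A10 rest on 7 and 4 UMIs, and a floor of 3 counts in these A10 cells is 35.9 CPM. Of the 43 Sult1e1 UMIs in the 5 A0 cells, 32 came from 1 cell.

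Cluster 0 held 2899 cells of B0 and 49 of BA10. Lcn2 stood at 16339 CPM in B0 and 18443 in BA10, Apoc1 at 7526 and 7331, and Akr1cl at 5137 and 5778. Sult1e1 stood at 2282 and 1962 and Rarres1 at 1371 and 1336. Ass1 stood at 2180.2 and 3469 CPM (log2 ratio of BA10 over B0 0.67) and Snhg11 at 302 and 151 CPM (-0.999), the ratios of the 7 genes farthest from 0. Insl3 stood at 12025 and 6195 CPM in the same cells.

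**Figure D2:**
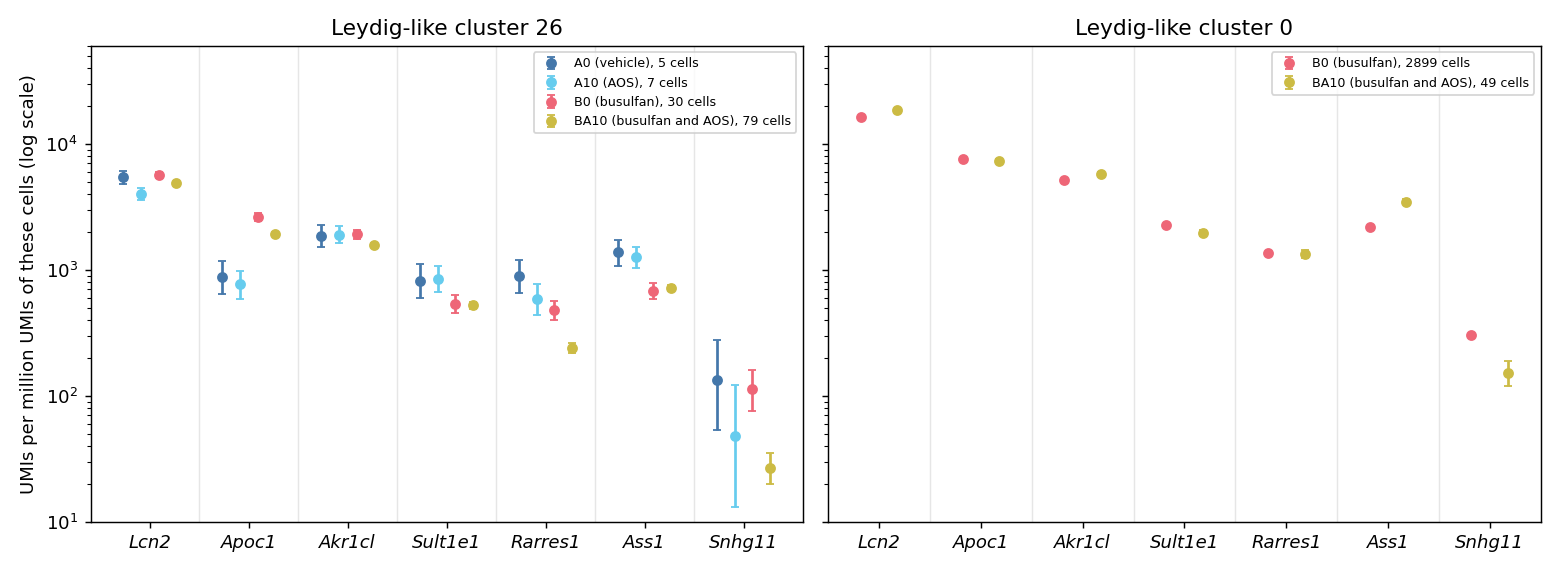
Level of the 7 genes in the Leydig-like cells, in CPM of those cells on a log scale, with exact 95% Poisson intervals; cluster 26 is on the left with all 4 libraries and cluster 0 on the right with B0 and BA10. In cluster 26 the Apoc1 points of B0 and BA10 (2637 and 1935 CPM) lie above those of A0 and A10, and the Ass1 points (679 and 716 CPM) below; in cluster 0 the points of Ass1 and Snhg11 lie farthest apart on the log scale.

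The 7 genes were next set against a Leydig reference, the summed UMIs of Insl3, Cyp17a1, Cyp11a1, Hsd3b1 and Star, over all cells of a library. Where the gene and the reference come from the same cells, this ratio does not change with their number. Lcn2 gave 57.8, 57.3, 65.3 and 74.3 UMIs per 100 reference UMIs. Akr1cl gave 20.2, 25.2, 20.8 and 26.6. The log2 change from A0 to B0, which was 10.74 and 10.17 for the levels, was 0.18 (counting interval 0.03 to 0.33) and 0.04 (-0.18 to 0.26) on this scale.

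Apoc1 gave 19.6, 15.1, 30.4 and 34.7 UMIs per 100 reference UMIs, a log2 change of 0.64 from A0 to B0. Sult1e1 gave 6.04, 8.18, 8.98 and 8.50, a log2 change of 0.57. These were the genes of the 7 with the largest upward change per reference. In A0, 1 Leydig-like cell held 32 of the 67 Sult1e1 UMIs and 143 of the 1109 reference UMIs. Within the Leydig-like cells alone Sult1e1 went the other way, from 10.5 in A0 to 9.14 in B0.

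Rarres1 gave 10.0, 9.73, 5.49 and 4.65, lower in both busulfan libraries. Ass1 gave 15.9, 16.8, 8.67 and 13.0, lowest in B0. Snhg11 gave 7.75, 4.27, 1.24 and 0.643. In A0, most UMIs of every gene but Sult1e1, and 700.0 of the 1109 reference UMIs, lay outside the Leydig-like cells. The log2 change from A0 to B0 was -0.87 for Rarres1, -0.87 for Ass1 and -2.65 for Snhg11. Over the 7 genes the log2 changes from A0 to B0 per reference ran from -2.65 to 0.64. Their median was 0.04, against 9.74 for the levels. The reference itself stood at 7800 CPM in the Leydig-like cells of A0 and 24572 CPM in those of B0. In cluster 26 it stood at 7800 and 8530 CPM. A change per reference is therefore not a change per Leydig cell.

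Within the Leydig-like cells alone, Apoc1 gave 11.2 (interval 8.10 to 15.3), 12.6 (10.2 to 15.5), 30.2 and 32.9 UMIs per 100 reference UMIs, and within cluster 26 it gave 11.2, 10.4, 30.9 and 32.4. Lcn2 gave 69.7, 60.7, 65.6 and 82.8, and Sult1e1 10.5, 11.0, 9.14 and 8.85. The A0 values rest on 5 cells, of which 1 held 149 of the 285 Lcn2 UMIs and 32 of the 43 Sult1e1 UMIs. Akr1cl gave 24.0, 27.0, 20.6 and 26.5, and Rarres1 11.5, 8.84, 5.50 and 5.05. Ass1 gave 17.6, 17.6, 8.74 and 13.9, and Snhg11 1.71, 0.605, 1.21 and 0.567. The Snhg11 values of A0 and A10 rest on 7 and 5 UMIs. The reference itself had another make-up in these cells, with Insl3 at 13.7% of it in A0 and 48.3% in B0, and Cyp17a1 at 57.9% and 29.1%.

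The choice of reference moved the values over all cells. With Insl3 alone as the reference, all 7 genes were lower in B0 than in A0 (median log2 change -1.88, and -1.75 for Lcn2), and with Cyp17a1 alone the median was 0.60, with Lcn2 at 0.74, Apoc1 at 1.20, Akr1cl at 0.60 and Sult1e1 at 1.13 and the other 3 genes below 0. From B0 to BA10 the changes per reference ran from -0.94 for Snhg11 to 0.58 for Ass1 with a median of 0.19. With Insl3 alone the median was 0.73 and Ass1 stood at 1.13, and with Cyp17a1 alone the median was -0.10.

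**Figure D3:**
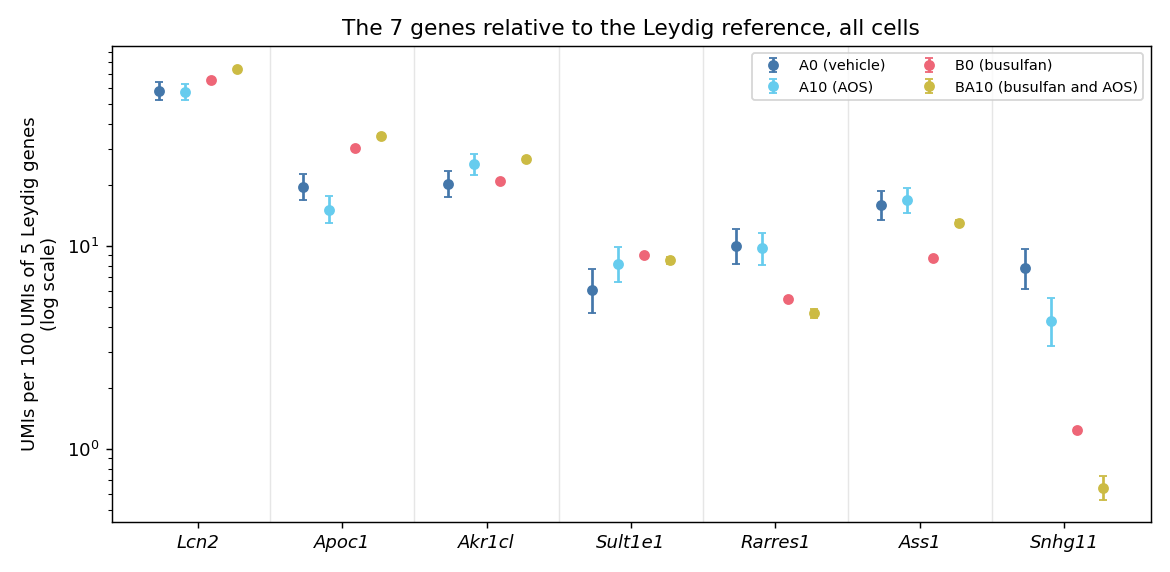
UMIs of each gene per 100 UMIs of the summed Leydig reference, on a log scale, by library, with exact 95% intervals. The points of a gene lie close together for Lcn2 and Akr1cl, rise from A0 to B0 for Apoc1 (19.6 to 30.4), and fall for Rarres1, Ass1 and Snhg11.

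UMIs of the genes were also counted outside the Leydig-like class. Of 206 spermatocyte-like B0 cells, 80.1% held at least 1 Lcn2 UMI, at 257 CPM, and of 2494 such cells in BA10 77.2%, at 64.3 CPM. In A0, where few Leydig-like cells were captured, 2.06% of 3294 spermatocyte-like cells held one, at 1.23 CPM. The median depths were 5059.5, 21339 and 11649 UMIs per cell in these B0, BA10 and A0 cells. Free RNA in droplets can give a cell UMIs of genes it does not express. Its part here was not tested, and these shares are not read as expression. In B0, Lcn2 stood at 64.3 UMIs per 100 reference UMIs in spermatocyte-like cells, 61.8 in Sertoli-like cells and 73.5 in spermatogonia-like cells, against 65.6 in Leydig-like cells. In 54 endothelial-like B0 cells it stood at 154 (counting interval 121 to 197, from 171 UMIs).

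A cluster of 459 B0 cells was named macrophage-like and carried Lcn2 at 9798 CPM. At a finer resolution it came apart into 96 macrophage-like cells with Lcn2 at 663 CPM and 363 other cells with Lcn2 at 12945 CPM. Those 363 cells held the Leydig reference at 21039.9 CPM, against 24572 CPM in the Leydig-like class, with Apoc1 at 5972, Akr1cl at 4233, Sult1e1 at 1582, Rarres1 at 1087, Ass1 at 1648 and Snhg11 at 272 CPM. The 11 macrophage-like cells of A0 had 0 UMIs of every one of the 7 genes, and a floor of 3 counts in these cells is 20.7 CPM. When single cells were instead called by their reference share (at least 50 UMIs per 10000), 3285 B0 cells passed, and the median log2 ratio of the 7 genes between Leydig and other B0 cells was 5.05 instead of 3.04.

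Lcn2 is also a granule protein of neutrophils. The 6 neutrophil markers in the table summed to 1.79, 1.62, 3.63 and 2.75 CPM. In B0, S100a8 and S100a9 had 3 UMIs each, Camp 59 and Mpo 27, while Ngp and Elane had 0. Their part in the Lcn2 values was not tested.

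Several of the genes had other ratios outside the Leydig-like cells. Ass1 gave 23.4 UMIs per 100 reference UMIs (counting interval 14.7 to 36.2) in endothelial-like B0 cells and 20.96 (15.02 to 28.7) in the 56 B0 cells of unnamed cluster 25, against 8.74 in Leydig-like cells. Akr1cl gave 30.1 in Sertoli-like and 35.2 in spermatogonia-like B0 cells against 20.6, and Rarres1 gave 11.6 in Sertoli-like B0 cells against 5.50. Apoc1 gave 54.0 UMIs per 100 reference UMIs in spermatocyte-like and 58.3 in spermatogonia-like B0 cells, against 30.2 in Leydig-like cells and 31.1 in Sertoli-like cells; in BA10 the ratio was 38.7 in spermatocyte-like and 32.9 in Leydig-like cells. Snhg11 stood at 65.4 CPM (counting interval 50.6 to 83.2) in spermatogonia-like B0 cells, at 9.92 UMIs per 100 reference UMIs against 1.21 in Leydig-like cells, and at 6.81 CPM in spermatocyte-like cells. In A0, an unnamed cluster of 105 cells led by Prss50, Stra8 and Dazl held Snhg11 at 14.9 CPM and 26.7% of the library's Snhg11 UMIs. This cluster had Snhg11 at 9.86 CPM in A10 and 8.80 CPM in BA10. Of the remaining A0 UMIs of Snhg11, spermatid-like cells held 52.3% of the library's 86 at 0.548 CPM and spermatocyte-like cells 11.6%.

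**Figure D4:**
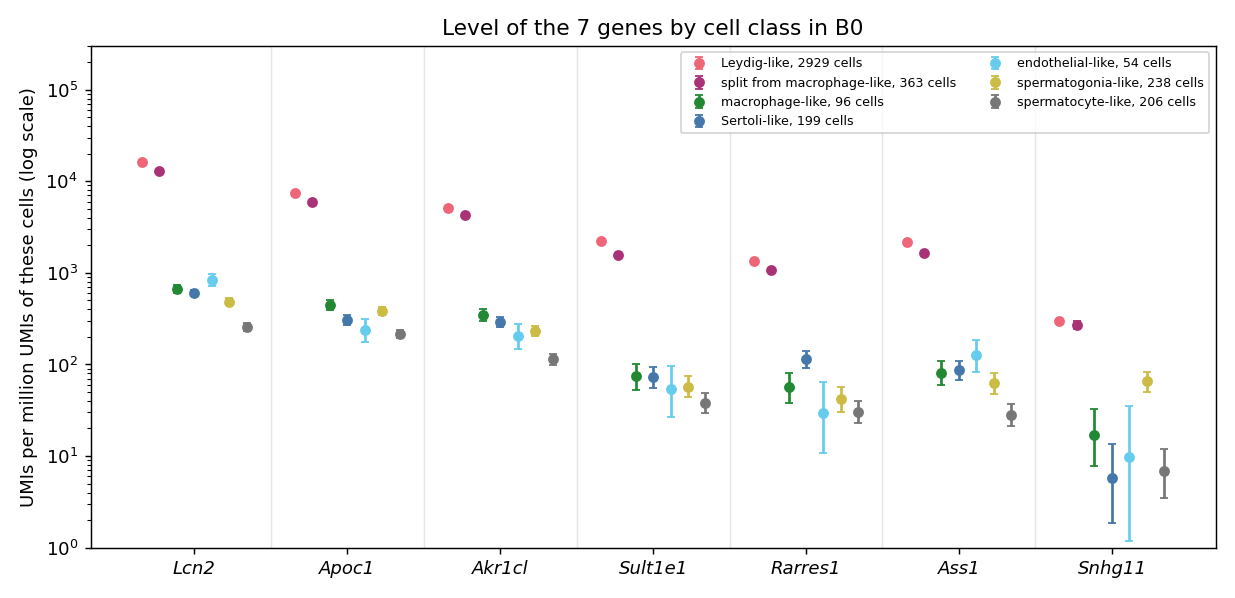
Level of the 7 genes by cell class in B0, in CPM of the class on a log scale, with exact 95% Poisson intervals; the macrophage-like cluster is shown split as described. Leydig-like cells and the 363 cells split off are highest for every gene, and spermatogonia-like cells are next highest for Snhg11 at 65.4 CPM.

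Among the Leydig-like cells of B0 the 7 genes varied to different degrees. Each of 2909 cells was thinned to 3000 UMIs, and 20 cells with fewer UMIs were left out. Lcn2 was seen in 99.9% of them, with a median of 44 UMIs and a range of 11 to 100 between the 5th and the 95th percentile. Its Fano factor, the variance divided by the mean, was 16.0. Few genes reached its mean of 48.0 UMIs: the 50 nearest in level had means of 6.32 to 35.8 UMIs and are not genes of like level. Of the reference genes with high means, Insl3 (35.8 UMIs) had a Fano factor of 4.59 and Cyp17a1 (21.3 UMIs) one of 7.25. Apoc1 had a mean of 22.2 UMIs, a median of 18, a range of 2 to 55 and a Fano factor of 13.8. Relative to the mean it spread more widely than Lcn2, with a squared coefficient of variation of 0.623 against 0.332.

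Akr1cl had the lowest squared coefficient of variation of the 7, 0.128. It was seen in 100% of the thinned cells, with a median of 15 UMIs, a range of 7 to 25 and a Fano factor of 1.959. Ass1 (0.529), Sult1e1 (0.627) and Rarres1 (0.880) had higher squared coefficients of variation, at lower means of 4.08 to 6.70 UMIs, and each was seen in 88.6% to 94.7% of cells. Snhg11, with the lowest mean of 0.913 UMIs, had the highest, 1.86. It was seen in 49.3% of the thinned cells, with a Fano factor of 1.69 against a median of 1.07 for the 50 genes nearest in level (means of 0.859 to 0.969 UMIs). In unthinned cells the shares were 99.9% for Lcn2 and 57.7% for Snhg11.

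**Figure D5:**
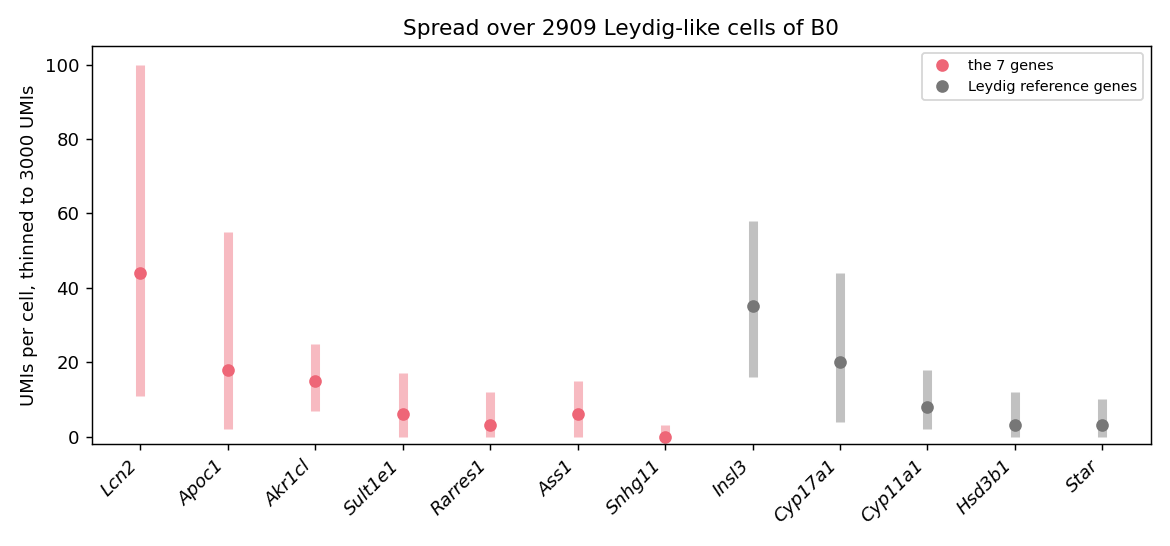
UMIs per cell for the 7 genes and the 5 reference genes over 2909 Leydig-like B0 cells thinned to 3000 UMIs; points are medians and bars run from the 5th to the 95th percentile. Lcn2 spreads from 11 to 100 UMIs and Akr1cl from 7 to 25.

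Over these 2909 cells of 1 library, Pearson's r of log UMIs for the 21 pairs ran from -0.10 (Lcn2 and Ass1) to 0.21 (Sult1e1 and Rarres1), with a median of 0.081, values too weak to be read as a finding in sparse counts. The genes of highest r with each of the 7 are given on the same terms. Lcn2 went most with the fatty acid carrier Fabp3 (r = 0.36) and Lrg1 (0.35), an acute phase gene, and Apoc1 with its chromosomal neighbour Apoe (0.39). Ass1 went with Cyp17a1 (0.39), the 17α-hydroxylase of androgen synthesis, and Mt3 (0.38), while its r with Hsd3b1 was -0.14. Sult1e1 also went with Cyp17a1 (0.32), and Rarres1 with the kallikrein genes Klk1b27 (0.37) and Klk1b21 (0.33). Akr1cl reached 0.21 with the glutathione transferase gene Gstm1, and Snhg11 0.12 with Mt3.

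Likeness was also taken across the 28 clusters. The gene most like Apoc1 was Insl3 (r = 0.997 of log2 CPM), for Akr1cl it was the angiotensinogen gene Agt (0.997), for Lcn2 it was Apoc1 (0.993), and for Sult1e1 it was Hsd3b1 (0.998). Rarres1 was most like Gpt2 (0.996) and Ass1 most like Tmem176a (0.996). Clusters share libraries and depth, so these are descriptions.

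Other genes of the pathways around the 7 were counted for B0 over A0 in the same way, beside the 26.8% of all genes called higher, with 0 called lower in every list. Genes low in A0 pass the filter only where B0 is high, so the counts are not over whole lists. Of acute phase and lipocalin genes, 9 of 10 tested (18 in the table) were at least 4-fold higher, led by the prostaglandin D synthase and lipocalin Ptgds (4.26, 5.53, 3569 and 159 CPM in A0, A10, B0 and BA10) by Lrg1 (0.0398, 0.104, 324 and 12.1) and by ceruloplasmin, Cp (0.199, 0.139, 59.0 and 1.61). Of iron handling genes, 7 of 9 were higher. They included the ferritin chain Ftl1 (10.3, 10.5, 2321 and 135 CPM), the heme oxygenase Hmox1 (0.411, 0.341, 51.5 and 2.63) and Aco1 (0.133, 0.195, 33.9 and 1.12). The other ferritin chain, Fth1, stood at 162, 179, 2923 and 556 CPM, and in B0 both ferritins stood higher in Leydig-like cells (Fth1 4326 and Ftl1 3185 CPM) than in the rest (1528 and 1462).

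Around Apoc1, 7 of 8 apolipoprotein and lipoprotein uptake genes were higher. Apoe stood at 38.0, 36.0, 2001 and 176 CPM, the cholesterol exporter Abca1 at 0.517, 0.237, 212 and 3.87 and the receptor Lrp1 at 0.172, 0.181, 100.3 and 3.15. Apoe was less confined to Leydig-like cells than Apoc1, at 2674 CPM there and 1332 CPM in other B0 cells, where Apoc1 stood at 7423 and 968. Of the 12294 Apoc1 UMIs in those other B0 cells, 9149 lay in the 363 cells split from the macrophage-like cluster.

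Of the aldo-keto reductases, 4 of 8 were higher, among them Akr1b8 (3.87, 4.57, 147 and 14.9 CPM), Akr1b10 (0.0862, 0.0417, 23.5 and 1.16) and Akr1a1 (19.6, 19.2, 303 and 78.8), and the aldose reductase gene Akr1b3 stood at 158, 159.9, 402 and 363 CPM. Of sulfotransferase and sulfate supply genes 6 of 8 were higher. They included Sult1a1 (0.119, 0.118, 40.9 and 2.41 CPM) and Papss1 (0.119, 0.132, 40.8 and 1.39), which makes the sulfate donor that Sult1e1 uses, and Slc35b2 (0.776, 0.571, 43.8 and 4.04), which carries it into the Golgi. Of the estrogen genes that passed the filter, both were higher: the receptor gene Esr1 (0.471, 0.411, 61.0 and 1.33 CPM) and Hsd17b7 (0.935, 1.09, 92.5 and 2.86), an enzyme of estradiol and cholesterol synthesis.

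Among latexin and retinoid genes, 5 of 8 were higher, with the retinal dehydrogenase Aldh1a1 at 3.58, 2.59, 4089 and 96.7 CPM and the retinal reductase Dhrs3 at 0.272, 0.411, 71.9 and 3.08. Of arginine and citrulline genes, 10 of 13 were higher, among them Gamt (3.14, 3.01, 206 and 17.8 CPM), Oat (2.79, 2.57, 144 and 9.34) and the arginine transporter Slc7a1 (0.464, 0.564, 41.8 and 2.53). Steroid synthesis genes gave 11 of 12. Other snoRNA host genes could not be set beside Snhg11, since 0 of 19 were in the table used here. Whether any of these lists moved apart from the Leydig content of the libraries was not tested.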

How the data were processed

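Single testis cells of 4 groups (A0, A10, B0, BA10; 1 library each, cells of several mice pooled) were measured. Per the methods of the study, reads were counted with Cell Ranger 2.2.0 on mm10 and normalized with Seurat. The values deposited by the authors are natural log values, ln(1 + x), with x the UMIs of a gene scaled to 10000 per cell. UMIs recovered from them were whole for 100% of values (tolerance 0.001). The methods name a forced cell number that the library sizes do not match, and how cells were called was not settled.

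Groups came from the labels. UMIs were summed per library or class and scaled to 1000000 (CPM), and log2 ratios had 1 CPM added. Exact Poisson and Clopper-Pearson intervals (95%) cover counting error only. Clusters came from scanpy 1.11.5 (Python 3.11.15) and leidenalg 0.10.2, with 2000 variable genes without the 7 genes, 30 components, 15 neighbours, resolution 1 and no alignment. Clusters were named from marker lists. A stromal list added after the data were seen left 1 cluster unnamed. Scrublet called 8.06%, 8.66%, 0.0859% and 1.27% of cells doublets in A0, A10, B0 and BA10, and these were kept. Scripts were tested on simulated data. Symbols of 17546 genes matched GENCODE M21.

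The 7 genes and the pathway lists were chosen with earlier results of these data known. Genes named beside them were the 3 of each list with the largest B0 to A0 ratio and that with the highest level in B0, and the 3 most like each gene. Some of these are not reported here. Lists are described by counts. Alternatives changed the pseudocount (10 CPM), filter, fold (2), UMI limit, averaging, centring, clustering, doublets and reference gene. The counts at the UMI limit, the split of the Leydig-like clusters and that of the macrophage-like cluster were added after the data were seen.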

Additional observations from a re-analysis of the deposited data

Results flagged for a closer look

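For 4 of the 7 genes the CPM levels of the AOS libraries moved in opposite directions without and with busulfan, with counting intervals away from 0 on both sides. The log2 ratio of A10 over A0 minus that of BA10 over B0 was 5.29 for Lcn2 (0.29 and -5.01), 5.27 for Akr1cl (0.44 and -4.83), 5.53 for Sult1e1 (0.30 and -5.24) and 4.84 for Ass1 (0.26 and -4.59). These use the B0 level that chose the genes. Among cells with at least 9013 UMIs the pairs of ratios were 0.30 and -1.11 for Lcn2, 0.37 and -1.07 for Akr1cl, 0.43 and -1.11 for Sult1e1, and 0.16 and -0.61 for Ass1, where the first interval of Ass1 (-0.095 to 0.41) included 0. Per 100 reference UMIs the pairs were -0.01 and 0.19 for Lcn2 and 0.32 and 0.36 for Akr1cl. They were 0.44 and -0.08 for Sult1e1 and 0.08 and 0.58 for Ass1, so that only Sult1e1 kept both signs. Its intervals per 100 reference UMIs overlapped between A0 (4.65 to 7.73) and A10 (6.68 to 9.93), and lay apart between B0 and BA10. The sign of its BA10 over B0 change was reversed at the UMI limit and with Insl3 alone as the reference, as given below. With 1 library per group the difference was not tested. The share of Leydig-like cells was 0.0559% and 0.0826% without busulfan (A0, A10) and 62.9% and 3.39% with it (B0, BA10).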

How the results depend on the processing

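With 10 CPM added, the median log2 ratio of the 7 genes was 6.90 for B0 over A0, 2.39 for BA10 over A0 and -4.80 for BA10 over B0. In cells with at least 9013 UMIs it was 5.83, 4.72 and -1.11. Averaged over cells it was 5.01 for BA10 over A0 and -4.61 for BA10 over B0, and centred on the median of all genes 9.42, 4.14 and -4.75. Without called doublets BA10 over B0 was -4.98. The direction held under each of these. At 2-fold, 4 genes of all tested were higher in A10 than A0, 1754 higher in BA10 than A0 and 3977 lower in BA10 than B0. At the UMI limit, 868 of all genes (8.06% of those tested) were called higher in B0 than A0, and 86 lower in BA10 than B0. There 0 of the 7 were called lower in BA10 than B0, and 20 of the 2929 Leydig-like B0 cells remained. The cause was not tested. With Leydig cells called per cell, the median log2 ratio between Leydig and other B0 cells was 5.05.

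Per reference, Insl3 alone gave medians of -1.88 (B0 over A0), -1.02 (BA10 over A0, reversed) and 0.73 (BA10 over B0). It reversed Lcn2 (-1.75), Apoc1 (-1.29) and Sult1e1 (-1.35) for B0 over A0, Lcn2 (-1.02), Apoc1 (-0.55), Akr1cl (-0.98) and Sult1e1 (-0.89) for BA10 over A0, and Sult1e1 (0.46) and Rarres1 (0.30) for BA10 over B0. Cyp17a1 alone gave 0.60, 0.64 and -0.10, and reversed the last as well as Lcn2 (-0.10) and Apoc1 (-0.10) for BA10 over B0. At the UMI limit the median for BA10 over B0 was 0.051, with Apoc1 (-0.29) and Sult1e1 (0.051) reversed. The cause was not tested. No paired analysis was possible because each group was 1 library. With 67 to 641 UMIs per gene in A0 and 5 Leydig-like cells there, these small numbers limit every statement on Leydig cells without busulfan.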
